A study of Rattus norvegicus with 24 samples.

Results

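The genes described here mark the endothelium, the inner lining of blood vessels, in rat kidney. They were found by symbol in the platform's probe annotation. Of 10 genes looked for, 8 had a probe set under their symbol (Kdr, Flt1, Tie1, Eng, Plvap, Emcn, Pecam1 and Vwf), with 10 probe sets among the 15923 of the array, 3 of them for Flt1. Tek and Cdh5 had none under their symbol and were not analysed here. The measurements came from 24 male SHR-SP rats, a stroke-prone inbred strain with spontaneous hypertension, put on a diet at 11 weeks of age. High salt and fat (HSF) rats had 1% NaCl in their water and chow of 24.5% fat, and kidneys were taken at 8 weeks (6 rats) or 2 weeks (6 rats). Normal-diet (ND) rats of the same strain were given plain powdered chow and water for 8 weeks (6 rats) or 2 weeks (6 rats). All groups thus carried the hypertensive background, salt and fat were never given apart, and RNA came from pulverised whole kidney, with 1 array per rat.

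Endothelial cells of the kidney receive vascular endothelial growth factor (VEGF), made by podocytes and tubule cells, through the receptor tyrosine kinases encoded by Kdr and Flt1. A second receptor system, with Tek and Tie1, responds to angiopoietins and governs vessel stability. Renal endothelium is also specialised by site. Peritubular capillaries and ascending vasa recta have fenestrae closed by diaphragms built from the Plvap protein, whereas adult glomerular capillaries mostly lack these diaphragms.

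Signals are the authors' MAS5 values, linear and scaled to a common level on every array. Differences between groups are of log2(signal + 7.2), written as change ± SE, on which the changes of dim probe sets are compressed. Adjusted p-values are from limma with Benjamini-Hochberg adjustment over 10208 probe sets, and "called" means an adjusted p under 0.05. Signals of different probe sets were not compared with each other. Array medians ranged from 68.7 to 78.7, and precision is limited by the 6 arrays per group. Markers of proximal tubule, thick ascending limb, collecting duct and podocyte on the array were all above the filter on low signals. ND arrays 1 and 2 at 8 weeks stood apart in their lowest signals, where the 1st percentile was 2.4 and 3.0, and 0.7 to 1.2 elsewhere. For members and named genes of the endothelial lists, 8-week diet changes without them are also given where they end a call or move the value by over 1.5 times. For the other comparisons only some such values are given, and for genes of neighbouring cell types none, so values without such a note are not thereby stable.

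The 2 members called in the diet comparisons were different genes at different times. Kdr, the main signalling receptor for VEGF, fell on HSF after 8 weeks, and Emcn, a sialomucin of capillary and venous endothelium, rose after 2 weeks. Plvap had 0.33 and 0.34 at 8 and 2 weeks and was called at neither. Of 9 member probe sets tested, 1 was called at 8 weeks (11.1%), against 9.14% of all probe sets, and 1 at 2 weeks (11.1%), against 8.74% of all. At 8 weeks 0 members were higher and 1 lower, against 5.63% and 3.51% of all, and at 2 weeks 1 was higher and 0 lower, against 4.55% and 4.19%. Member probe sets with an unadjusted p under 0.05 numbered 2 of 9 at 8 weeks and 3 of 9 at 2 weeks, against 23.7% and 22.8% of all. The share of members called was therefore near that of the whole array. The median change of the 9 member probe sets was 0.04 at 8 weeks and 0.0023 at 2 weeks, beside -0.0015 and 0.02 over all probe sets tested. With 1 probe set per gene, the median of the 8 genes was 0.08 and 0.02. The members' changes had no common direction, with 5 probe sets positive and 4 negative at each time, both tested Flt1 probe sets among the negative. They ran from -0.40 to 0.33 at 8 weeks and from -0.34 to 0.34 at 2 weeks.

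**Figure D1:**
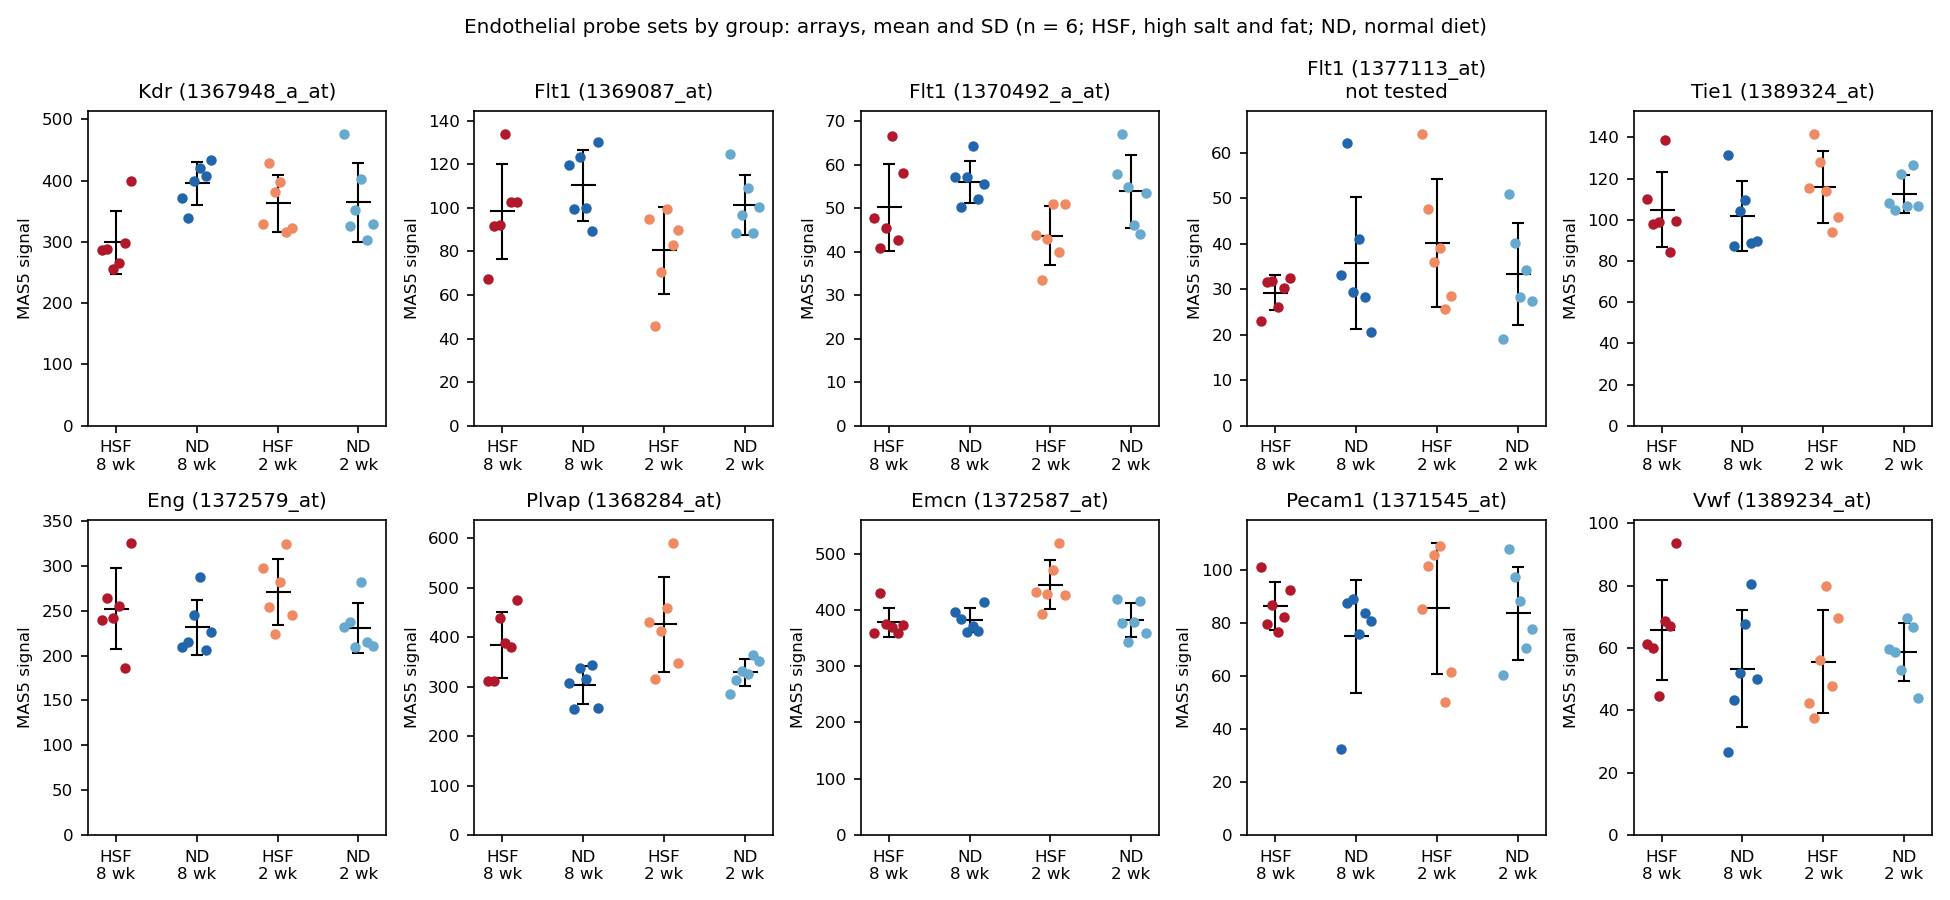
MAS5 signal (vertical axes, linear, from 0) of each of the 10 endothelial probe sets on each array, by diet and time, with the group mean and SD (n = 6). Kdr lay below every ND array in 5 of 6 HSF arrays at 8 weeks, and in every panel the diet groups of each time overlap.

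Of the VEGF receptors, Kdr (Entrez gene 25589) gave the clearest difference. At 8 weeks its signal had a lowest, median and highest value of 255.6, 287 and 399.3 on HSF, against 339.3, 403 and 433 on ND. In 5 of 6 HSF arrays Kdr lay below every ND array, and the groups overlapped only through HSF array 6. The change was -0.40 ± 0.11 (95% interval -0.62 to -0.19, adjusted p = 0.016), a signal lower by 24.5% on the log2(signal + 7.2) scale. The Kdr call held in all 27 other settings at 8 weeks, single arrays left out included, with values from -0.50 to -0.36. Because the RNA came from whole tissue, fewer cells of a type and less RNA per cell cannot be told apart, for Kdr and for every gene below.

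At 2 weeks Kdr did not follow this pattern. Its signal had a lowest, median and highest value of 316.2, 356 and 428.6 on HSF, against 303, 341 and 476.3 on ND, and the groups overlapped fully (-0.0005 ± 0.11, adjusted p = 0.998). The 95% interval at 2 weeks, from -0.22 to 0.22, leaves room for changes of that size in either direction. By mean signal the groups ran from HSF at 8 weeks (299 ± 51.5, SD, n = 6) through HSF at 2 weeks (363 ± 46.5) and ND at 2 weeks (365 ± 64.2) to ND at 8 weeks (395 ± 34.5). Differences between neighbours in this order were not called, with -0.28 ± 0.11 for 8 against 2 weeks on HSF (adjusted p = 0.153) and 0.13 ± 0.11 for 8 against 2 weeks on ND (adjusted p = 0.788). Without HSF array 6 at 8 weeks, the comparison of times on HSF was called (-0.36, adjusted p = 0.0367). The difference between the diet effects, -0.40 ± 0.15, had an unadjusted p of 0.0122 and an adjusted p of 0.28, so a change of the diet effect with time was not shown.

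Flt1 encodes VEGF receptor 1, which binds VEGF tightly and, in its soluble form, acts as a decoy. The Flt1 probe set that was above the filter level on all 24 arrays had a lowest, median and highest signal of 67.3, 97.5 and 134 on HSF, against 89.2, 109.75 and 130.3 on ND at 8 weeks. The 8-week groups overlapped almost entirely (-0.17 ± 0.15, adjusted p = 0.538). At 2 weeks the same probe set had 45.6, 86.4 and 99.6 on HSF, against 88.4, 98.7 and 124.7 on ND. In 3 of 6 HSF arrays at 2 weeks Flt1 lay below every ND array, and the change was -0.34 ± 0.15 (adjusted p = 0.174). It was -0.20 without HSF array 2, which had the lowest signal, and -0.14 with the GAPDH ratio (described with Emcn) as a covariate, and the 8-week value was -0.072 without HSF array 1 and -0.26 without HSF array 4. A further Flt1 probe set, above that level on 13 arrays, gave -0.15 ± 0.13 at 8 weeks (adjusted p = 0.511) and -0.26 ± 0.13 at 2 weeks (adjusted p = 0.225). Both tested Flt1 probe sets thus had negative values at both times, none of them called. The remaining one had signals of 22.9 to 32.5 on HSF and 20.7 to 62.2 on ND at 8 weeks, and of 25.7 to 64.1 and 19.1 to 51.0 at 2 weeks. It was above the 40th percentile of its array on 4 of 24 arrays, where 6 were required, and was not tested.

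Tie1, the orphan receptor that partners Tek, had overlapping groups throughout. At 8 weeks its signal ranged from 84.5 to 138.6 on HSF (median 99.3) and from 87.4 to 131.5 on ND (median 97.1). At 2 weeks it ranged from 94.2 to 141.7 on HSF (median 114.8) and from 104.9 to 126.8 on ND (median 107). The changes were 0.04 ± 0.11 at 8 weeks and 0.03 ± 0.11 at 2 weeks (adjusted p = 0.877 and 0.899). The intervals, -0.19 to 0.27 and -0.20 to 0.26, leave room for changes of up to that size. With single arrays left out the 8-week value ranged from -0.040 to 0.11 and the 2-week value from -0.026 to 0.085, and without ND arrays 1 and 2 the 8-week value was 0.082.

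Eng encodes endoglin, a co-receptor for ligands of the TGF-beta and BMP family that is abundant on dividing endothelium. At 2 weeks its lowest, median and highest signals were 224.2, 268 and 324.7 on HSF, against 209.3, 224 and 281.9 on ND. All 6 HSF arrays lay above the ND median, yet the groups overlapped and the change of 0.22 ± 0.11 was not called (adjusted p = 0.219). At 8 weeks Eng had 186.3, 249 and 325.4 on HSF, against 205.9, 220.3 and 287.4 on ND (0.11 ± 0.11, adjusted p = 0.579). Without HSF array 6 this change was 0.036, without HSF array 5 it was 0.19, without ND array 4 it was 0.17, and without ND arrays 1 and 2 it was 0.055. With the level of the spike-in control probe sets as a covariate it was 0.20.

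Among the genes of specialised capillaries, Plvap, the diaphragm protein, had like values at both times. At 8 weeks its lowest, median and highest signals were 311.1, 384 and 474.5 on HSF, against 254.3, 311 and 343.4 on ND. At 2 weeks they were 315.1, 421 and 589.8 on HSF, against 285.9, 328 and 363.1 on ND. At each time 4 of 6 HSF arrays lay above every ND array, and 2 lay within the ND range. The change was 0.33 ± 0.12 at 8 weeks (95% interval 0.08 to 0.58, adjusted p = 0.0867) and 0.34 ± 0.12 at 2 weeks (95% interval 0.09 to 0.59, adjusted p = 0.0773). Plvap was called at 8 weeks without HSF array 2 (0.39, adjusted p = 0.0497), and at 2 weeks without HSF array 2 (0.42, adjusted p = 0.0315) or 6 (0.39, adjusted p = 0.0445). In the other direction, it was 0.27 without HSF array 6 at 8 weeks (adjusted p = 0.169), 0.28 without ND arrays 1 and 2 (adjusted p = 0.263) and 0.24 without HSF array 5 at 2 weeks (adjusted p = 0.216). The difference between these diet effects was -0.01 ± 0.17 (adjusted p = 0.985).

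With the mean of both diet effects as the comparison, which was added after these values were seen and uses the same arrays, Plvap was called. The averaged change was 0.34 ± 0.09 (95% interval 0.16 to 0.51, adjusted p = 0.00704), and it stayed called in all 38 other settings, with values from 0.29 to 0.40. It was the 1 member probe set of 9 (11.1%) called in that comparison, against 17.6% of all probe sets. Of the 9 member probe sets, 6 had an unadjusted p under 0.05, Flt1 counted by 2, against 31.9% of all. In the same comparison Kdr had -0.20 ± 0.08 (adjusted p = 0.061) and Flt1 -0.25 ± 0.11 and -0.21 ± 0.09 (adjusted p = 0.0992 and 0.115). Eng had 0.17 ± 0.08 (adjusted p = 0.132) and Emcn 0.10 ± 0.05 (adjusted p = 0.154). Leaving out ND array 5 or HSF array 2 at 2 weeks, or ND array 2 or HSF array 6 at 8 weeks, added the averaged Kdr change to the calls (-0.25 to -0.22). The first Flt1 probe set was added without HSF array 4 at 8 weeks (-0.30), and Eng without HSF array 5 at 8 weeks (0.21).

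Emcn was the least variable member, with coefficients of variation of 5.52 to 9.83% within groups. At 2 weeks its lowest, median and highest signals were 393.4, 430 and 518.8 on HSF, against 343, 377 and 419.5 on ND. In 5 of 6 HSF arrays Emcn lay above every ND array, and the change was 0.22 ± 0.07 (95% interval 0.07 to 0.36, adjusted p = 0.0487). At 8 weeks it had 359.5, 372 and 429.6 on HSF, against 360.3, 378 and 415 on ND, with no separation (-0.01 ± 0.07, adjusted p = 0.931). Between the times, Emcn on HSF had -0.23 ± 0.07 at 8 against 2 weeks (adjusted p = 0.0615), which was called without array 2 of either time (-0.27 and -0.26). On ND the same comparison gave 0.0012 ± 0.07 (adjusted p = 0.999). The difference between the diet effects, -0.23 ± 0.10, was not called (adjusted p = 0.352).

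The Emcn call at 2 weeks was narrow, and was kept in 9 of 26 other settings. Leaving out any single one of 8 arrays (ND 2, 3, 4, 6 and HSF 1, 3, 4, 5) ended it (0.17 to 0.22, adjusted p from 0.0628 to 0.135). At 2 weeks the arrays also differed in technical measures. GAPDH signal at the 3' end relative to the 5' end, a measure that rises with RNA degradation, was 1.22 ± 0.09 on HSF and 1.09 ± 0.07 on ND (SD, n = 6). The mean centred log2 level of 18 spiked control probe sets was -0.13 on HSF and 0.17 on ND, and an index of adipocyte markers was -0.82 and 0.90. With the GAPDH ratio, the spike level or the adipocyte index as a covariate, Emcn had 0.24, 0.16 and 0.19 (adjusted p = 0.108, 0.299 and 0.299), and Plvap 0.47, 0.28 and 0.33. The 8-week Kdr call was kept with each of them. What part these measures have in the 2-week values was not tested beyond these fits. The adipocyte index was made from Fabp4, Cfd and Car3, which themselves fell on HSF at 2 weeks. At 8 weeks the GAPDH ratio was 1.16 on both diets, and the adipocyte index was 0.08 on HSF and -0.155 on ND. The spike level at 8 weeks also differed, in the opposite direction, with 0.099 on HSF and -0.13 on ND. Because the measures differed between the diets at 2 weeks, and the spike level also at 8 weeks, the fits cannot fully separate them from diet.

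**Figure D2:**
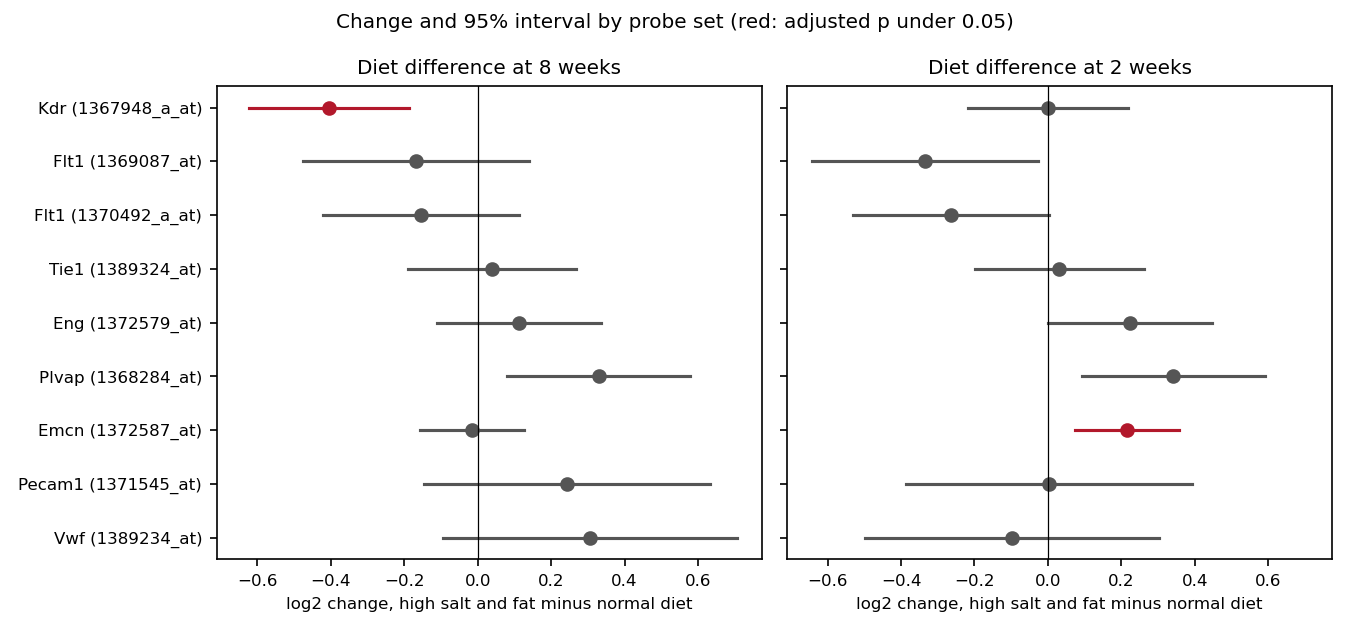
Change on the log2(signal + 7.2) scale (horizontal axis, HSF minus ND) of the 9 tested endothelial probe sets at 8 weeks (left) and 2 weeks (right), with 95% intervals from limma. Kdr at 8 weeks (-0.40) and Emcn at 2 weeks (0.22), in red, had an adjusted p under 0.05.

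The remaining members are also made by blood cells. Pecam1, the junctional adhesion molecule CD31, is carried by platelets and leukocytes as well as endothelium. At 8 weeks its lowest, median and highest signals were 76.5, 84.5 and 100.9 on HSF, against 32.5, 82.2 and 88.8 on ND, with 2 HSF arrays above every ND array and ND array 1 far below the rest. The change was 0.24 ± 0.19 (adjusted p = 0.476), 0.04 without that array and 0.06 without ND arrays 1 and 2. At 2 weeks Pecam1 had 50.1, 93.3 and 108.8 on HSF, against 60.3, 83 and 107.8 on ND (0.0023 ± 0.19, adjusted p = 0.996).

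Vwf encodes von Willebrand factor, the multimeric clotting protein stored by endothelial cells and megakaryocytes. At 8 weeks its signals were 44.6, 64.1 and 93.6 on HSF, against 26.7, 50.9 and 80.6 on ND, where array 1 was again lowest. The change of 0.31 ± 0.20 was not called (adjusted p = 0.361), and it was 0.15 without ND array 1 and 0.06 without ND arrays 1 and 2. At 2 weeks Vwf had 37.4, 52.0 and 80 on HSF, against 44, 59.3 and 69.7 on ND (-0.10 ± 0.20, adjusted p = 0.81). Vwf varied widely, with coefficients of variation of 15.9 to 35.3% within groups.

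No member was called by limma between 8 and 2 weeks on either diet, and none had a called difference between the diet effects. On HSF 0 of 9 probe sets were called, against 3.53% of all, and 2 had an unadjusted p under 0.05 (Kdr and Emcn, values above), against 17% of all. On ND 0 of 9 were called, against 0.0392% of all, and 0 had an unadjusted p under 0.05, against 8.51%. For the difference between the diet effects 0 of 9 were called, against 0.382% of all, and Kdr and Emcn had an unadjusted p under 0.05, against 11.6% of all. On ND the 8 against 2 week values of the members ran from -0.18 for Pecam1 to 0.13 for Kdr, and on HSF from -0.28 for Kdr to 0.28 for Flt1. Without ND arrays 1 and 2 at 8 weeks the ND value was -0.0019 for Pecam1 and 0.20 for Kdr. The time comparisons share arrays with the diet comparisons and are no separate evidence for Kdr or Emcn.

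With group means removed, the 28 pairs of the 8 genes had a median Pearson r of 0.03 over 24 arrays, from -0.48 to 0.38, and 16 of 28 were positive. The strongest was Pecam1 with Emcn (r = -0.477, permutation p = 0.0261, adjusted p = 0.607 over 28 pairs, and Spearman's rho = -0.409, permutation p = 0.0728, adjusted p = 0.821). Without the 2 arrays farthest from the Pecam1 median that r was -0.348, and within the groups it was -0.42 on HSF and -0.38 on ND at 8 weeks, and -0.54 on HSF and -0.72 on ND at 2 weeks. By Pearson permutation tests 0 of 28 pairs passed adjustment and 1 of 28 had an unadjusted p under 0.05, and by Spearman tests 0 of 28 passed adjustment. Kdr and Flt1, which bind the same ligand, had r = 0.02 (adjusted p = 0.962), with 0.02 on HSF and 0.21 on ND at 8 weeks and -0.63 on HSF and 0.95 on ND at 2 weeks. The capillary genes Plvap and Emcn had r = 0.18 (adjusted p = 0.759), with -0.34 on HSF and -0.78 on ND at 8 weeks and 0.95 on HSF and -0.27 on ND at 2 weeks, and -0.29 over all groups without 2 arrays. Groups of 6 arrays thus gave values of both signs for these pairs, and differences between groups were not tested.

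The other genes whose array-to-array pattern was most like the mean of the members were Pam, Pter, Xpnpep2, Vamp7, Pfkm and Wwc3, with Pearson r of 0.77, 0.73, 0.71, 0.70, 0.69 and 0.69 over 24 arrays with group means removed. They were the highest of 8647 candidates, all values of an array share its scaling, and r with single members ran from -0.34 to 0.66 for Pfkm, so these are descriptions. None of the 6 was in the list of other endothelial genes.

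Among ligands of these receptors, Angpt2, the angiopoietin that antagonises or activates Tek depending on context, rose at both times. At 8 weeks its lowest, median and highest signals were 60.8, 69.9 and 79.5 on HSF, against 34.8, 43.5 and 72.2 on ND (0.52 ± 0.16, adjusted p = 0.0358). At 2 weeks they were 41.4, 75.1 and 93.8 on HSF, against 34.9, 41.4 and 47.2 on ND (0.70 ± 0.16, adjusted p = 0.00472). In 6 of 6 HSF arrays at each time Angpt2 lay above the ND median, and overlap came from ND array 3 at 8 weeks and HSF array 2 at 2 weeks. Apart from these 2 arrays, HSF signals lay above the 40th percentiles of the arrays (44.48 to 54.5), and ND signals within or below that range. Angpt2 thus passed the filter through its HSF arrays, and ND signals so low leave the size of the rise uncertain. The 8-week call was kept in 14 of 26 other settings. It ended on leaving out any single one of 7 arrays (ND 1, 4, 5, 6 and HSF 1, 3, 5; 0.45 to 0.51) or ND arrays 1 and 2 together (0.53, adjusted p = 0.0806), with the spike level as a covariate (0.54, adjusted p = 0.0827), with no filter (adjusted p = 0.0558), with only the groups compared (adjusted p = 0.0538) and with a block given in the closing section. The 2-week call was kept in 24 of 25 and ended with the adipocyte index as a covariate (0.68, adjusted p = 0.0795).

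Of 8 genes tested in the list of VEGF and angiopoietin ligands and co-receptors, 1 rose and 0 fell at 8 weeks, and 1 rose and 1 fell at 2 weeks. Of all probe sets, 5.63% rose and 3.51% fell at 8 weeks, and 4.55% and 4.19% at 2 weeks. The list's median change was -0.03 at 8 weeks and 0.02 at 2 weeks. The gene that fell was Vegfd, a growth factor of lymphatic vessels, with 42.2, 57.2 and 78.1 on HSF, against 80.4, 87.7 and 100.8 on ND at 2 weeks. Its groups did not overlap at 2 weeks (-0.56 ± 0.14, adjusted p = 0.0138), as for 2.17% of all probe sets in that direction. Vegfa, the ligand of Kdr and Flt1, had -0.15 ± 0.06 at 8 weeks (adjusted p = 0.142) and 0.14 ± 0.06 at 2 weeks (adjusted p = 0.197). The other Vegfa probe set had -0.09 and -0.29, so the probe sets differed in sign at 2 weeks, and neither was called. Ptprb, the phosphatase that restrains Tek, had 0.07 ± 0.11 at 8 weeks and 0.09 ± 0.11 at 2 weeks (adjusted p = 0.768 and 0.689). Angpt1 had no probe set under its symbol.

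**Figure D3:**
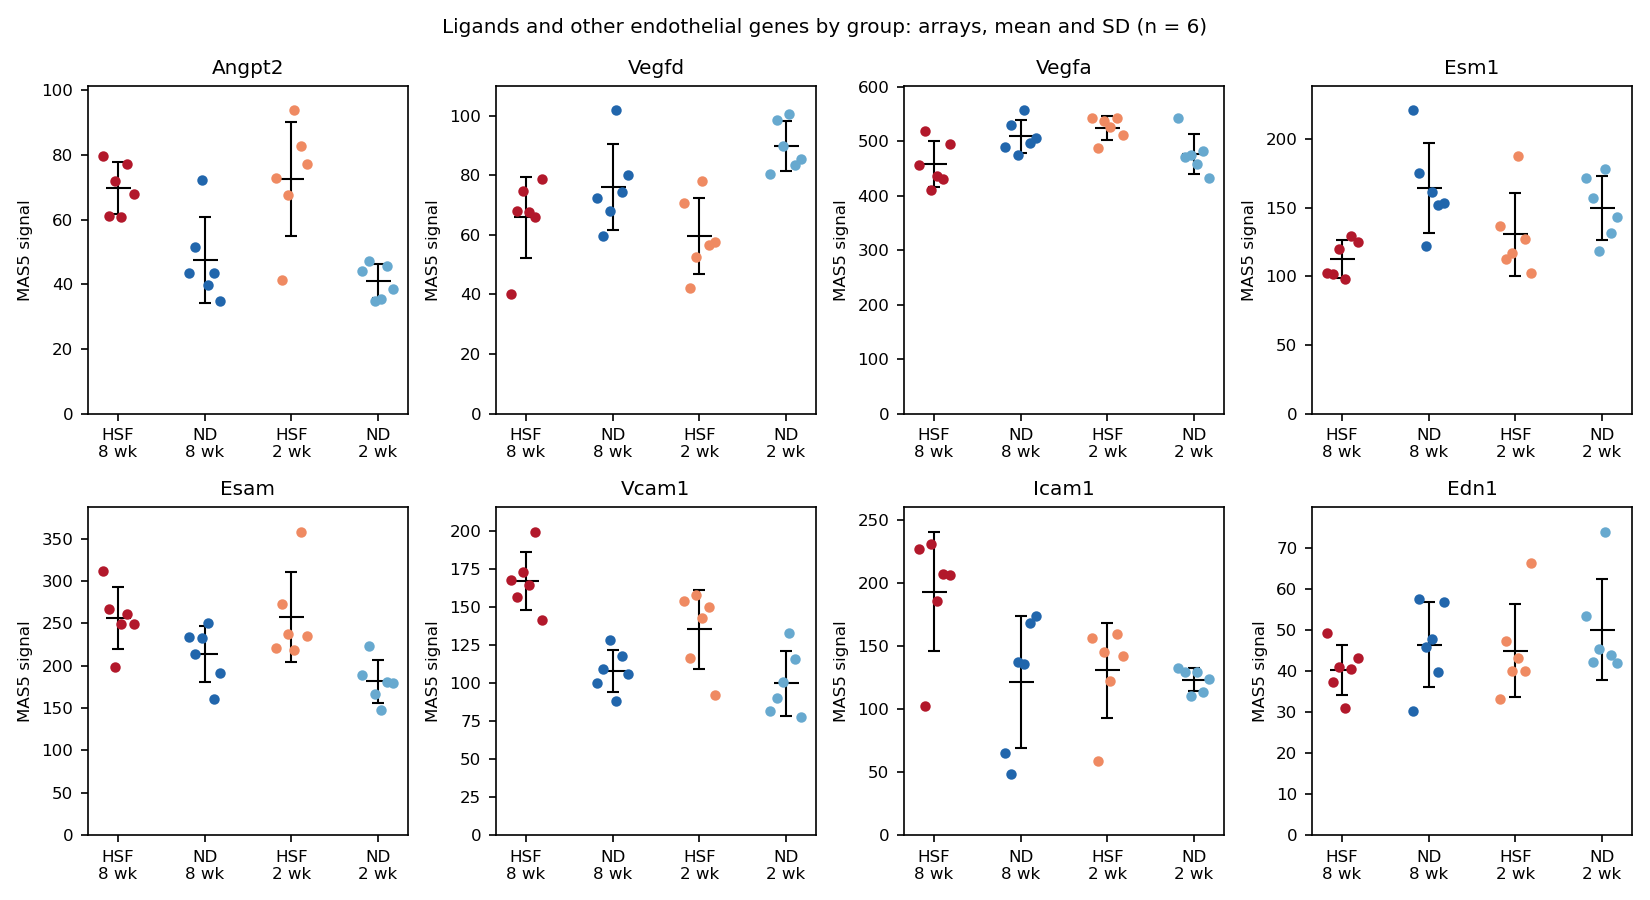
MAS5 signal (vertical axes, linear, from 0) of 8 ligands and other endothelial genes on each array, by diet and time, with the group mean and SD (n = 6). The 6 HSF arrays of Vcam1 at 8 weeks, from 141.7 to 199.7, lie above all 6 ND arrays, as the 2-week HSF arrays of Vegfd lie below theirs.

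Of 30 other endothelial genes tested, 0 rose and 1 fell at 8 weeks, and 1 rose and 1 fell at 2 weeks. Of all probe sets, 5.63% rose and 3.51% fell at 8 weeks, and 4.55% and 4.19% at 2 weeks. The median changes of the 30 genes, 0.05 and 0.04, stood beside -0.0015 and 0.02 over all probe sets. Esm1, endocan, a secreted proteoglycan of endothelium, was the gene that fell at 8 weeks. Its signals were 97.7, 111 and 129.5 on HSF, against 121.7, 157 and 220.8 on ND, and 4 of 6 HSF arrays lay below every ND array (-0.50 ± 0.13, adjusted p = 0.0152). With the spike level as a covariate the Esm1 call was lost (-0.42, adjusted p = 0.104). Without ND arrays 1 and 2 it was also lost (-0.37, adjusted p = 0.12), whereas that of Kdr was kept (-0.48, adjusted p = 0.0164).

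At 2 weeks Esam, an adhesion molecule of endothelial junctions and platelets, rose. It had 219, 236 and 358.1 on HSF, against 148.2, 180.1 and 223.7 on ND, with a slight overlap (0.48 ± 0.12, adjusted p = 0.0129). Mcam, which pericytes and smooth muscle also carry, fell at 2 weeks by 1 probe set (-0.50 ± 0.16, adjusted p = 0.0447), and its other probe set had -0.0046. The call was kept in 10 of 26 other settings. It ended on leaving out any 1 of 9 arrays (ND 1, 2, 3, 5, 6 and HSF 2, 3, 4, 5, with values of -0.51 to -0.43). At 8 weeks the same Mcam probe set had 0.07 ± 0.16 (adjusted p = 0.849), and 0.11 without ND arrays 1 and 2. Edn1, the vasoconstrictor endothelin-1, was called at neither time (-0.16 ± 0.16 and -0.14 ± 0.16, adjusted p = 0.608 and 0.67). Its group medians, from 40.7 to 46.75, were near the filter level, where changes are compressed. Nos3, the endothelial nitric oxide synthase, had signals of 22.2 to 54.9 on HSF and 10.8 to 29.1 on ND at 8 weeks, and of 19.3 to 32.2 and 21.6 to 40.8 at 2 weeks, and lay below the filter.

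Of 9 genes tested for endothelial activation and endoglin's signalling partners, 1 rose and 0 fell at each time, with list medians of 0.09 at 8 weeks and 0.12 at 2 weeks. Of all probe sets, 5.63% rose and 3.51% fell at 8 weeks, and 4.55% and 4.19% at 2 weeks. The gene that rose was Vcam1, the adhesion molecule that captures leukocytes. Whole-kidney RNA does not show which cells made Vcam1. At 8 weeks it had 141.7, 166 and 199.7 on HSF, against 88.4, 107 and 128.3 on ND, with no overlap (0.60 ± 0.13, adjusted p = 0.0032), as for 2.21% of all probe sets in that direction. At 2 weeks Vcam1 had 91.9, 146 and 158.2 on HSF, against 77.6, 95.4 and 132.9 on ND (0.42 ± 0.13, adjusted p = 0.0399), a call that ended on leaving out any single one of 8 arrays (ND 1, 2, 3, 6 and HSF 1, 3, 4, 5; 0.35 to 0.42). It also ended after quantile normalization (0.37, adjusted p = 0.0715), with no filter (adjusted p = 0.0636) and with only the groups compared (adjusted p = 0.0825), and was kept in 12 of 26 other settings, while the 8-week Vcam1 call was kept in all 27. Icam1, a related adhesion molecule, had 102.2, 207 and 230.9 on HSF, against 48.2, 137 and 173.5 on ND at 8 weeks (0.73 ± 0.25, adjusted p = 0.0632). Without ND arrays 1 and 2, which held its lowest values, Icam1 had 0.28 at 8 weeks, and at 2 weeks it had 0.02 ± 0.25 (adjusted p = 0.974). Leaving out ND array 5, ND array 6 or HSF array 2 made the 8-week Icam1 change a call (0.84 to 0.89).

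Markers of neighbouring cells differed between the same groups, and their part in the members' values was not tested. Called over all probe sets were 5.63% higher and 3.51% lower at 8 weeks, and 4.55% and 4.19% at 2 weeks. At 8 weeks, where Kdr was lower, 1 of 5 podocyte genes fell (Synpo, -0.21 ± 0.07, adjusted p = 0.0438), with -0.22 and no call for its other probe set. The summed podocyte signal at 8 weeks ranged from 678 to 841 on HSF and from 782 to 945 on ND. Of 10 proximal tubule genes 5 fell at 8 weeks and 7 at 2 weeks, with summed signals at 8 weeks of 19918 to 23659 on HSF and 23328 to 30270 on ND. At 2 weeks the proximal tubule sums did not overlap, with 19784 to 24530 on HSF and 27288 to 29710 on ND. Smooth muscle and pericyte genes had 3 of 10 higher and 0 lower at 8 weeks (Tagln, Rgs5 and Myl9), with sums of 1521 to 1826 on HSF against 1131 to 1446 on ND. Macrophage and leukocyte genes had 3 of 7 higher and 0 lower at 8 weeks (Cd68, C1qa and Lyz2), with sums of 2985 to 4019 on HSF against 2465 to 3052 on ND. At 2 weeks 0 of 7 were called, and the sums were 2416 to 2865 on HSF (median 2559) and 2784 to 3192 on ND (median 2852). Of 5 collecting duct genes 4 rose at each time (Aqp2, Aqp3, Aqp4 and Fxyd4), with 1 lower at 2 weeks (Scnn1b), and the sums did not overlap, with 2013 to 2907 on HSF against 1365 to 1916 on ND at 8 weeks and 2292 to 2599 on HSF against 1160 to 1622 on ND at 2 weeks. Of 5 genes of the thick ascending limb 1 rose at 8 weeks (Slc12a1) and 3 at 2 weeks (Slc12a1, Cldn16 and Cldn10), with 0 lower and sums at 2 weeks of 6858 to 8896 on HSF and 6599.9 to 7681 on ND. At 2 weeks 4 of 4 adipocyte genes fell (Fabp4, Cfd, Car3 and Adrb3), with sums of 150 to 328 on HSF and 356 to 3955 on ND.

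For platelets, which carry Vwf and Pecam1, 0 of 2 tested genes were called at either time, and the sums at 8 weeks were 205.6 to 240.7 on HSF and 176.4 to 251.4 on ND. Of 3 lymphatic endothelial genes tested 0 were called at 8 weeks, with sums of 217 to 258.5 on HSF and 179 to 265 on ND. The lymphatic list's median change at 2 weeks was -0.0061, with overlapping sums of 228 to 262 on HSF and 203 to 254 on ND. At 2 weeks 1 of the 3 rose, Prox1, a transcription factor of lymphatic endothelium that other renal cells can also make. It had 65.3, 71.6 and 85.4 on HSF, against 44.7, 53.4 and 60.9 on ND, with no overlap (0.44 ± 0.14, adjusted p = 0.0409), as for 2.67% of all probe sets in that direction. These HSF signals all lay above the 40th percentiles of the arrays (44.48 to 54.5), whereas some of the ND signals lay within that range. The Prox1 call ended on leaving out any single one of 8 arrays (ND 1 to 5 and HSF 2, 3, 6; 0.40 to 0.47) and with no filter (adjusted p = 0.0673). With the GAPDH ratio, spike level or adipocyte index as a covariate, the 2-week calls of Prox1, Vegfd, Mcam and Vcam1 were lost each time. In that order of covariates Vegfd had -0.50, -0.54 and -0.51, and Vcam1 0.39, 0.40 and 0.36. Prox1 had 0.42, 0.45 and 0.27, and Mcam -0.34, -0.52 and -0.36. The Esam call was lost with the GAPDH ratio (0.48) and the spike level (0.33) and kept with the adipocyte index (0.60). As for Emcn, these fits cannot fully separate the covariates from diet. In each of these lists 0 genes were at a signal of 0 on any array.

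**Figure D4:**
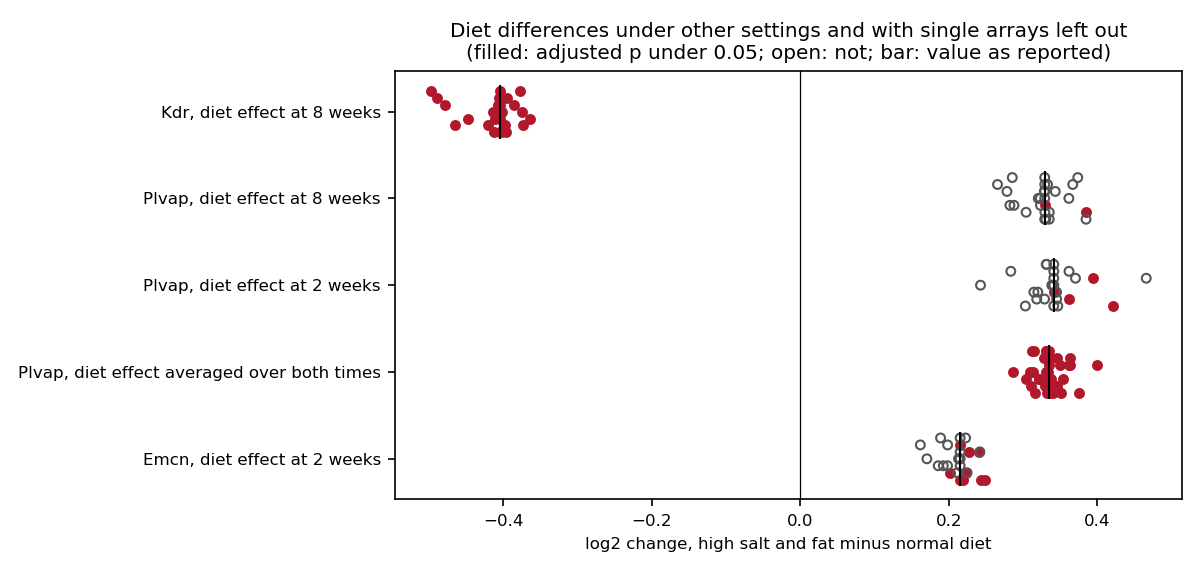
Change on the log2(signal + 7.2) scale (horizontal axis, HSF minus ND) of Kdr, Plvap and Emcn under each other setting and with each array left out (filled points, adjusted p under 0.05; open points, not; bars, values as reported). Kdr at 8 weeks stays between -0.50 and -0.36 and called throughout, Plvap is called throughout in the average of both times, and the points of Emcn at 2 weeks lie on both sides of the threshold.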

How the data were processed

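Kidney RNA of 24 rats was hybridised to 1 array each, per the labels' protocols. The authors deposited intensity values on a linear scale, made with MAS5 according to the submitters' processing notes. The MAS5 version, scaling target and detection calls are not given in the sources used here. Arrays of a group shared at most 0.691% identical values. The labels give replicate animals. Gene symbols came from the platform annotation: of 15923 probe sets, 12783 had 1 symbol, 312 several, 2771 none and 57 were controls. The Entrez identifiers of all 8 member genes gave the same symbols in a RefSeq gene table.

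Signals were taken as log2(signal + 7.2), the added constant being 0.1 times the median of array medians, and were not normalised again. Tested were the 10208 probe sets, controls left out, whose signal exceeded their array's 40th percentile (44.48 to 54.5) on 6 or more of 24 arrays. Group means were fitted to all arrays with limma 3.58.1 in R 4.3.3 (eBayes with trend, two-sided, Benjamini-Hochberg). Other genes were represented by their probe set of highest mean signal. Named were all members, called genes of the endothelial lists, and Vegfa, Angpt1, Angpt2, Nos3, Edn1, Icam1, Vcam1 and Ptprb. Correlations used 100000 permutations within groups. The diet effect averaged over both times was added after values were seen. Alternatives covered the scale, normalization, filter, variance model, technical covariates and left-out arrays. The procedure was tested on simulated data. The members and lists were chosen with earlier results of these data known.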

Additional observations from a re-analysis of the deposited data

Results flagged for a closer look

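Of 40 combinations of probe set and group, 3 held an array whose gap to its nearest neighbour was large against the range of its group by Dixon's criterion at the 95% level, which chance meets in about 1 of 20. Pecam1 had a signal of 32.5 on ND array 1 at 8 weeks, against 75.6 to 88.8 on the other 5 arrays. Kdr had 399.3 on HSF array 6 at 8 weeks, against 255.6 to 298.5 on the others, and without it the 8-week change was -0.49 (adjusted p = 0.00195). Emcn had 429.6 on HSF array 2 at 8 weeks, against 359.5 to 374.9 on the others, and without it the 8-week change was -0.05 (adjusted p = 0.707).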

How the results depend on the processing

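Besides single arrays, 15 other settings were tried. At 8 weeks 1 member probe set was called, and 1 to 2 with single arrays left out. At 2 weeks 1 was called, but 0 after quantile normalization, centring on medians, no filter, eBayes without trend, only the groups compared, or with the GAPDH ratio, spike level or adipocyte index as a covariate, 2 with array weights, and 0 to 2 with single arrays left out. For time on HSF 0 were called, but 1 after centring or with array weights, and 0 to 1 with single arrays left out. For the averaged diet effect, chosen after seeing the data, 1 was called, but 2 after quantile normalization, with array weights or without ND arrays 1 and 2 at 8 weeks, and 1 to 2 with single arrays left out. The cause was not tested. The stricter filter at the 60th percentile left 6 member probe sets.

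Calls over all probe sets moved by over 1.5 times as follows. At 2 weeks 892 became 314 with the GAPDH ratio, 482 with the spike level and 232 with the adipocyte index. At 8 weeks 933 became 497 with the spike level, 542 without ND arrays 1 and 2, 543 without HSF array 1 and 579 without HSF array 5. For the interaction 39 became 4, 0 and 13 with the GAPDH, spike and adipocyte covariates, 80 with array weights and 22 without HSF array 3 at 8 weeks. For time on HSF 360 became 632 with array weights, 223 with only the groups compared, 233 without HSF array 3 at 2 weeks and 220 without HSF array 5 at 8 weeks. For time on ND 4 became 0 to 10, and for the averaged effect 1795 became 1161 with the adipocyte index.

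Replicate numbers are shared between groups but come from different animals. Same-numbered arrays correlated from -0.147 to 0.162 over 36 pairs, and 4 of 24 arrays correlated best with their own number. With the number as a replicate block, 2 member probe sets were called at 8 weeks, Plvap being added (adjusted p = 0.0448), and 1 at 2 weeks, Plvap (adjusted p = 0.0391) in place of Emcn (adjusted p = 0.0665). Among other genes, the calls of Angpt2 at 8 weeks (adjusted p = 0.0509) and Mcam at 2 weeks (adjusted p = 0.0695) were lost, and Icam1 at 8 weeks was added (adjusted p = 0.0187).

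Of 2195 values of single probe sets under other settings, 96 turned sign, 56 of them with a single array left out, and 0 of the 96 were called by limma. Without ND arrays 1 and 2 at 8 weeks, such values were Emcn 0.0012 for diet at 8 weeks, Vwf 0.072 and Emcn -0.014 for time on ND and Vwf -0.017 for averaged diet. With the spike level as a covariate, such values were Pecam1 -0.011, Vwf -0.0038 and Emcn 0.027 for diet at 8 weeks, Kdr 0.12, Tie1 -0.019 and Vwf 0.31 for diet at 2 weeks and Pecam1 -0.34, Vwf -0.31, Eng 0.085 and Plvap 0.090 for interaction. With the spike level as a covariate also, such values were Pecam1 -0.20 and Vwf -0.081 for time on HSF and Pecam1 0.14, Vwf 0.23, Eng -0.11 and Emcn -0.052 for time on ND. With a pseudocount of 1, such values were Pecam1 -5.3e-05 for diet at 2 weeks. After quantile normalization, such values were Pecam1 -0.016, Tie1 -0.0016 and Icam1 -0.0061 for diet at 2 weeks, Plvap 0.0036 for interaction and Eng -0.014 and Emcn -0.0025 for time on ND. With array weights, such values were Kdr 0.027 for diet at 2 weeks and Pecam1 -0.016 for time on HSF. With the GAPDH ratio as a covariate, such values were Pecam1 -0.25 and Tie1 -0.012 for diet at 2 weeks, brighter Flt1 -0.023 for interaction and Pecam1 -0.0062 for averaged diet. With the adipocyte index as a covariate, such values were Pecam1 -0.19 and Icam1 -0.36 for diet at 2 weeks, dimmer Flt1 -0.019 and Tie1 -0.23 for interaction and Emcn -0.015 for time on ND. After centring on medians, such values were Eng -0.033 and Emcn -0.032 for time on ND. Without single arrays the ranges of results that turned were Emcn -0.051 to 0.0097, Tie1 -0.040 to 0.11 and Mcam -0.036 to 0.13 for diet at 8 weeks and Pecam1 -0.079 to 0.13, Kdr -0.050 to 0.079, Icam1 -0.047 to 0.22 and Tie1 -0.026 to 0.085 for diet at 2 weeks. Without single arrays the further ranges were Plvap -0.091 to 0.087 and Tie1 -0.071 to 0.080 for interaction and Pecam1 -0.071 to 0.13 for time on HSF. Without single arrays the further ranges were Emcn -0.028 to 0.029, Eng -0.062 to 0.058 and Pecam1 -0.26 to 0.015 for time on ND and Tie1 -0.0041 to 0.071 for averaged diet.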
